A study of Mus musculus with 6 samples.

Results

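The Serpin genes of CD45-negative mouse lung cells were described before and after silica aspiration, which leaves silica particles in the lung and is used as a model of silicosis. The superfamily was taken as every gene whose symbol begins with Serpin. Of 69 such genes in the gene table, 60 had a probe on the array, and 41 of these were kept because a probe was well above background on at least 2 of the 6 arrays, out of 16440 genes kept in all. Of the 41, 34 were above background on all 6 arrays, and 3 (Serpina1d, Serpinb5 and Serpinb9b) were above background on neither untreated array. Just inside the limit stood Serpina6, Serpinb9b and Serpinf2, each above background on 3 arrays. Just outside it stood Serpina5 and Serpinb9e, each on 1 array. The other 17 genes with a probe were above background on no array (Serpina12, Serpina3j, Serpina3k, Serpina4-ps1, Serpina7, Serpinb11, Serpinb12, Serpinb13, Serpinb3a, Serpinb3b, Serpinb3d, Serpinb7, Serpinb9c, Serpinb9d, Serpinb9f, Serpinb9g and Serpini2). The 9 genes without a matched probe, and so not analysed here, were Serpina16, Serpina1b, Serpina3d-ps, Serpina3e-ps, Serpina3g, Serpina3l-ps, Serpinb1-ps1, Serpinb9h and Serpine3.

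Cells came from Ccr2KO mice (B6.129S4-Ccr2tm1Ifc/J), which lack the chemokine receptor that brings inflammatory monocytes into tissue, and from WT mice (C57BL/6J). The mice were 7 to 9 weeks old when the experiments began, and both genotypes were studied untreated (day 0) and on days 28 and 40 after aspiration. Perfused lungs were digested, red cells and silica were removed on Percoll, and cells without CD45, a surface protein of leukocytes, were isolated with magnetic labels. RNA pooled from 3 biological replicates was put on 1 array in each of the 6 groups, so there is no measured spread between animals, and the errors below come from what day and genotype leave unexplained over the 6 arrays. In such a mixture, fewer cells of a type and less RNA per cell cannot be told apart.

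Serpins are protease inhibitors that work as a bait. The target protease cuts an exposed loop of the serpin, the loop folds into the body of the inhibitor, and the protease is trapped and distorted. Members of clade a are mostly secreted into plasma and tissue fluid, members of clade b mostly stay inside the cell, and the smaller clades hold the regulators of clotting, plasminogen activation and complement. A few members, such as the collagen chaperone Serpinh1, have kept the fold but inhibit no protease. In the mouse, single human genes have expanded into clusters of near-identical copies.

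Signals are given on the log2 scale after division by the array's 75th percentile, so 0 means a signal equal to that percentile. The level of one gene's probe is not comparable with that of another. Gene tests were limma fits over all 16440 genes with day and genotype as terms, and a gene was called at a Benjamini-Hochberg adjusted p below 0.05. The 75th percentile itself was 969, 975 and 793 intensity units on the Ccr2KO arrays and 1179, 1159 and 878 on the WT arrays (untreated, day 28, day 40), and no spot was saturated. The CD45-negative label was checked with 6 leukocyte markers, all above background on all 6 arrays. Their summed linear signal, in multiples of the 75th percentile, was 34.9, 126 and 26 in Ccr2KO cells and 66.5, 168 and 37.1 in WT cells, highest on day 28 in both. The Ccr2 gene itself gave -5.07, -1.51 and -3.64 in Ccr2KO cells and 0.09, 1.38 and -1.70 in WT cells, lower in Ccr2KO on each day, although the difference of -3.33 ± 0.66 (SE) had an adjusted p of 0.415. Where its probe lies relative to the deleted part of the gene was not tested.

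Many Serpin genes were higher after silica, among them most alpha-1-antitrypsin (Serpina1) and antichymotrypsin (Serpina3) copies, PAI-2 (Serpinb2), maspin (Serpinb5) and the collagen chaperone Serpinh1. Of the 41 genes, 19 (46.3%) were higher in silica cells (mean of days 28 and 40) than in untreated cells, against 10.5% of all genes. None was called lower, against 9.28% of all genes, while 26 of the 41 had an unadjusted p below 0.05 in either direction. Serpina1d and Serpinb5 are among the 19 although they passed the filter on dim probes only through silica arrays, so their calls add no support. Among the 34 genes above background on all 6 arrays, 17 rose, against 9.87% of all genes above background on all 6. The median log2 change of the 41 genes was 0.92, against -0.01 for all genes. All 4 silica arrays lay above both untreated arrays for 22 of the 41 genes, against 21.1% of all genes. On all 4 silica arrays 12 of the 41 were at least 2-fold above the untreated array of their own genotype, against 3.38% of all genes. Serpina1d and Serpinb5 are in both of these counts. Among the 34 genes above background on all 6 arrays the counts were 20 and 10. The 19 include 4 Serpina1 and 5 Serpina3 copies. Whether their probes read 1 copy or several was not tested, so the 19 cannot be counted as separate observations.

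The arrays lay in rows of the slide that did not balance the groups, since row 1 held the untreated arrays of both genotypes together with Ccr2KO day 28, and row 2 held the rest. With slide row as a block no gene of the 16440 passed, the smallest adjusted p being 0.255. The median log2 change of the 41 genes was then 0.55. The 19 genes kept positive values, with a median of 1.41 under the block. Within row 1 the Ccr2KO day 28 array was above the Ccr2KO untreated array for all 19, by a median of 1.26. The 19 were picked as higher on these same arrays, so these signs add no support and do not separate silica from slide row. Without the WT day 28 array, or without the Ccr2KO day 28 array, 0 Serpin genes and 0 of all genes passed, with 1 residual degree of freedom in each case. Leaving out any one of the other 4 arrays left 14 to 18 Serpin genes higher.

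By clade, 11 of 17 genes of clade a rose, with a median log2 change of 1.33, and 5 of 15 genes of clade b, with a median of 0.28. The share of all genes was 10.5%. The 11 include 4 Serpina1 and 5 Serpina3 copies, which cannot be counted as separate observations. Serpina1d in clade a and Serpinb5 in clade b were kept only because of their silica arrays, so their calls add no support. The remaining 3 that rose were Serpine2, Serpinf1 and Serpinh1. The plot of silica changes by clade shows this division.

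**Figure D1:**
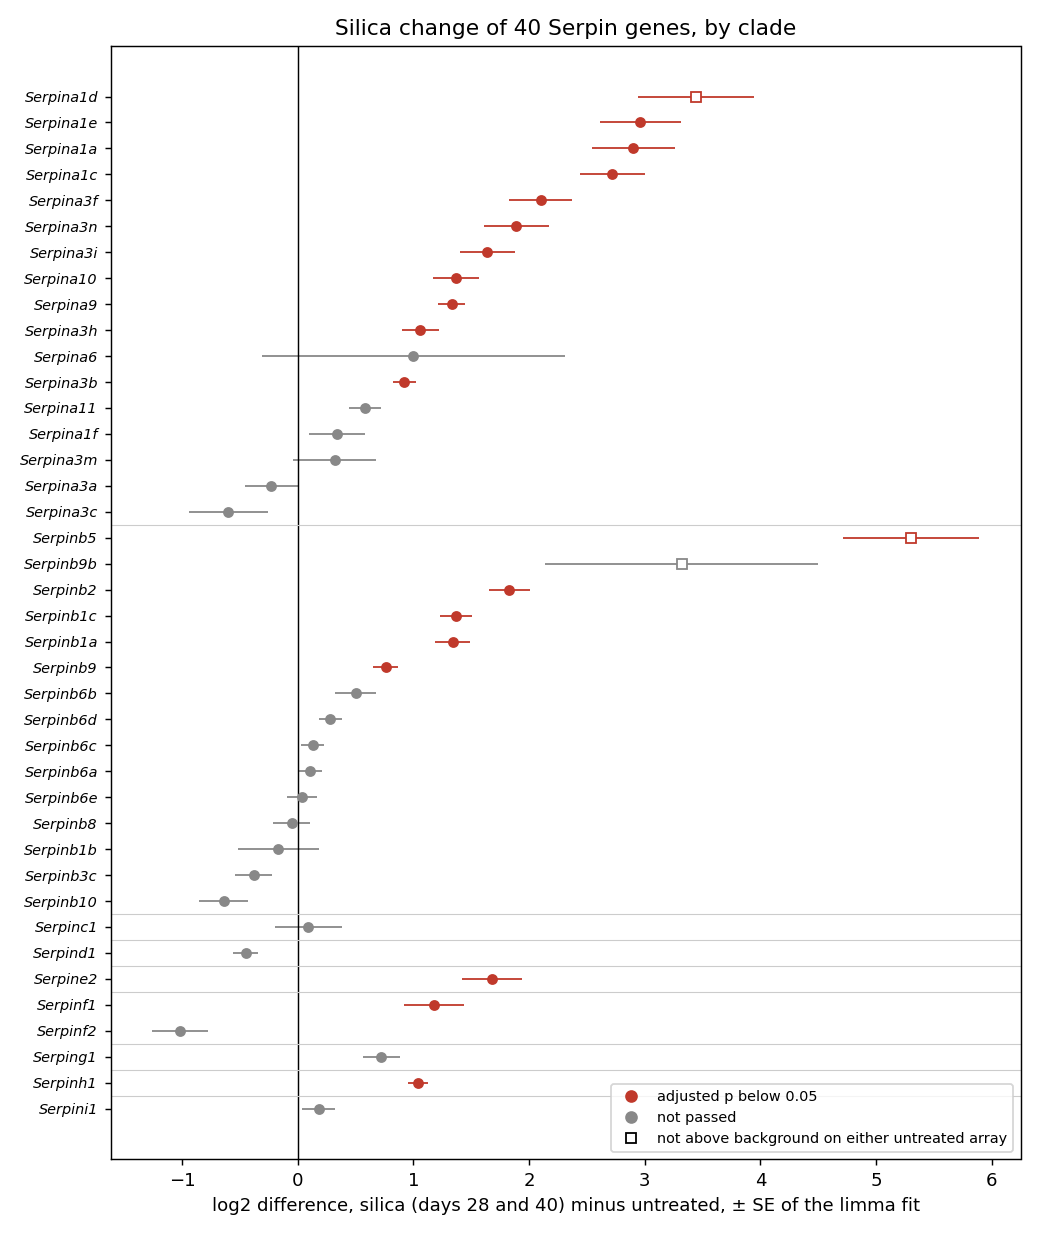
Log2 difference between silica cells (days 28 and 40) and untreated cells for 40 Serpin genes, grouped by clade and ordered by size within each, with bars for the SE of the limma fit over 6 arrays. Red points passed at an adjusted p below 0.05, and open squares were above background on neither untreated array. Of the 19 red points, 11 lie in clade a and 5 in clade b.

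Serpina1 genes encode alpha-1-antitrypsin, the plasma inhibitor that guards lung tissue against neutrophil elastase and is made mostly in the liver. Of 5 measured copies, 4 rose: Serpina1a, Serpina1c, Serpina1d and Serpina1e. Serpina1a gave -2.82, -1.19 and 0.07 in Ccr2KO cells and -4.36, -1.80 and 0.17 in WT cells (untreated, day 28, day 40). Its silica change was 2.90 ± 0.36 on the log2 scale (SE, limma adjusted p = 0.0159). Both genotypes were lowest when untreated and highest on day 40, and the silica and untreated arrays did not overlap.

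Serpina1c followed the same course, at -2.88, -1.12 and 0.02 in Ccr2KO cells and -4.06, -1.94 and 0.07 in WT cells, a silica change of 2.72 ± 0.28 (adjusted p = 0.0118). Serpina1e stood at -3.22, -1.54 and -0.27 in Ccr2KO cells and at -4.73, -2.06 and -0.21 in WT cells, a change of 2.96 ± 0.35 (adjusted p = 0.0145). In each, the 2 untreated arrays were the lowest of the 6. Serpina1d was above background on the 4 silica arrays alone, with -3.83 and -2.67 in Ccr2KO cells and -4.75 and -2.33 in WT cells on days 28 and 40. Against untreated signals of -5.83 in Ccr2KO cells and -7.84 in WT cells, not well above background, it was about 10.3-fold higher. It was kept only because of its silica arrays, so its passing the test adds no support. For such a fold, a dim array was given the larger of the measured signal and the weakest signal that any probe well above background had there. That weakest signal is not the detection limit of the probe itself, so the fold is an estimate and the true fold may be smaller. Serpina1f, at -4.60, -3.88 and -4.40 in Ccr2KO cells and -4.31, -4.33 and -3.84 in WT cells, did not pass (0.34 ± 0.24, adjusted p = 0.359).

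With silica entered as yes or no in place of the 3 days, none of the 4 copies passed (adjusted p between 0.059 and 0.0661). The 4 copies cannot be counted as 4 separate observations. After each gene was centred on its own mean, Serpina1a and Serpina1e differed by at most 0.09 on any array, and Serpina1a and Serpina1c by at most 0.30. The files do not hold the probe sequences, so whether a probe reads 1 copy or several was not tested. A second, dimmer probe also rose in value for Serpina1a (2.16 on the log2 scale), Serpina1d (3.61) and Serpina1e (1.30), in the last case by much less than the 2.96 of the probe used. The array annotation and the promoter windows below come from different builds, so no probe position is given.

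The promoters show how close the copies are, and the proximal 120 bases before the annotated start are printed for the 4 that rose (RefSeq, GRCm38.p6, 5′ to 3′ on the strand of the gene). Capitals mark the 55-base run that all 4 share.
Serpina1a, chr12:103863620-103863739, minus strand: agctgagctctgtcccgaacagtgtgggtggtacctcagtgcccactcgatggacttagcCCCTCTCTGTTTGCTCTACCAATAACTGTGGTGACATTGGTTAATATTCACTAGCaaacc
Serpina1c, chr12:103904951-103905070, minus strand: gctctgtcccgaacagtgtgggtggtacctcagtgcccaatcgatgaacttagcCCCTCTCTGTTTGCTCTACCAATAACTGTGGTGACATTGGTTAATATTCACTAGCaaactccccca
Serpina1d, chr12:103773634-103773753, minus strand: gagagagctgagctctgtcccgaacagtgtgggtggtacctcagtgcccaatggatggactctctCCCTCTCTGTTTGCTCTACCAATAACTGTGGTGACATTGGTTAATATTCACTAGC
Serpina1e, chr12:103956898-103957017, minus strand: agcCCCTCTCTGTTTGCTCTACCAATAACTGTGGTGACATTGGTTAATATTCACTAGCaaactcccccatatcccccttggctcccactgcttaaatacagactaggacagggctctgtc
Counted from the annotated start, the shared run begins at -60 in Serpina1a, -66 in Serpina1c, -55 in Serpina1d and -117 in Serpina1e. Over the 250 bases before the start, Serpina1a was 91.4% identical to Serpina1c and 89.4% to Serpina1d. Serpina1e, whose annotated start lies further along, was 60.3% identical to Serpina1a, and Serpina1f 48.6%.

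Since the liver is the main source of these transcripts, hepatocyte markers were looked at beside them. Of 5, Apoa1 and Ttr were not measured, and albumin was above background on 2 of the 6 arrays. Albumin (Alb) gave -3.67, -6.67 and -6.92 in Ccr2KO cells and -3.71, -5.10 and -5.20 in WT cells, with no silica array well above background. With those dim signals as measured, it was 4.86-fold lower after silica. Fga, a fibrinogen chain, was above background on 3 arrays and did not pass (0.01 ± 0.53, adjusted p = 0.992). Ahsg, the plasma protein fetuin-A, was above background on all 6 and rose by 1.67 ± 0.15 (adjusted p = 0.00952). The summed signal of the 3 markers, carried almost entirely by Ahsg, was 0.955, 2.28 and 2.65 in Ccr2KO cells and 0.666, 2.20 and 1.93 in WT cells. Their mean log2 signal was -2.92, -3.51 and -3.84 in Ccr2KO cells and -3.35, -3.11 and -2.89 in WT cells, and their part in the Serpina1 changes was not tested.

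Serpina3 genes are the mouse counterparts of human alpha-1-antichymotrypsin, an acute phase protein that inhibits cathepsin G and chymase in humans. Of 14 in the gene table, 10 had a probe and 8 were measured, and 5 of the 8 rose: Serpina3b, Serpina3f, Serpina3h, Serpina3i and Serpina3n. Serpina3n, an acute phase serpin that can inhibit granzyme B, gave 2.89, 4.07 and 4.48 in Ccr2KO cells and 1.57, 3.99 and 3.95 in WT cells. Its silica change was 1.89 ± 0.28 (adjusted p = 0.0217). Most of the increase was present by day 28 in both genotypes, and no silica array overlapped an untreated one.

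Serpina3f gave 0.28, 1.67 and 2.07 in Ccr2KO cells and -1.24, 1.31 and 1.45 in WT cells (2.10 ± 0.27, adjusted p = 0.0171). Serpina3i gave -0.17, 0.85 and 1.31 in Ccr2KO cells and -1.40, 0.69 and 0.58 in WT cells (1.64 ± 0.24, adjusted p = 0.0215). Both were at least 2-fold above their untreated array on all 4 silica arrays. Serpina3h stood at 0.27, 0.90 and 1.26 in Ccr2KO cells and at -0.49, 0.74 and 0.89 in WT cells, a change of 1.06. Serpina3b stood at -1.26, -0.43 and -0.17 in Ccr2KO cells and at -1.52, -0.66 and -0.61 in WT cells, a change of 0.92. Their silica and untreated arrays did not overlap either. Serpina3f and Serpina3n, once centred, differed by at most 0.25 on any array, and the caution on shared reads holds for these copies too.

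The other 3 measured copies did not follow. Serpina3c gave 1.02, -0.25 and -0.19 in Ccr2KO cells and 0.13, 0.39 and -0.06 in WT cells, a silica change of -0.60 ± 0.34 that did not pass (adjusted p = 0.268). Serpina3m changed by 0.32 ± 0.36 (adjusted p = 0.555) and Serpina3a by -0.23 ± 0.23 (adjusted p = 0.498). In all 3 the silica and untreated arrays overlapped. Of the Serpina3 genes with a promoter window, Serpina3c was nonetheless the closest to Serpina3n. Over the 250 bases before the start they were 90.5% identical, while Serpina3n was 63.1% identical to Serpina3i and 63.0% to Serpina3f. The 120 bases before the start are printed for both (RefSeq, GRCm38.p6), with capitals at bases that differ or have no partner when the full 250 bases of both are aligned.
Serpina3n, chr12:104406588-104406707, plus strand: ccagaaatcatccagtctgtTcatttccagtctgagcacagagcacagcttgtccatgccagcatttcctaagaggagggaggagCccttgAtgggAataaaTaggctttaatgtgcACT
Serpina3c, chr12:104153873-104153992, minus strand: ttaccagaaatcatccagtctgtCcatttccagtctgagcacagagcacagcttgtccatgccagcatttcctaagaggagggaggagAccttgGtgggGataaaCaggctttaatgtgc
Serpina3n carries 8 such bases, 3 of them at its end where the Serpina3c window stops, and Serpina3c carries 5.

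**Figure D2:**
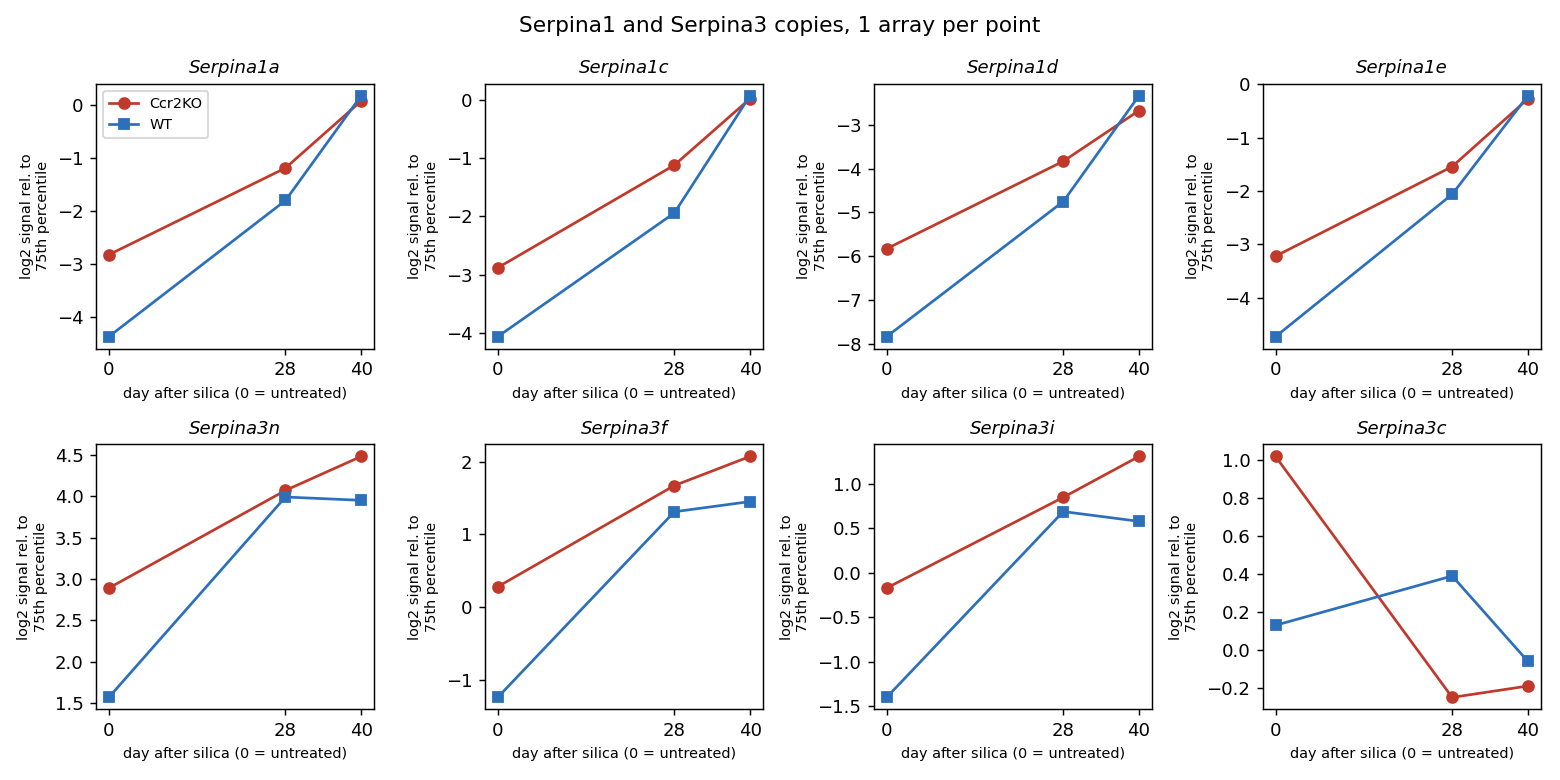
Log2 signal over the array's 75th percentile against day after silica (day 0 is untreated) for 4 Serpina1 and 4 Serpina3 copies, with 1 array per point and separate vertical scales. The Serpina1 copies climb to day 40 in both Ccr2KO and WT cells, Serpina3n, Serpina3f and Serpina3i reach most of their increase by day 28, and Serpina3c shows no common direction.

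Other secreted members of clade a also rose. Serpina10, the protein Z-dependent inhibitor of clotting factor Xa, gave -1.40, -0.53 and -0.25 in Ccr2KO cells and -2.12, -0.58 and -0.19 in WT cells (1.37 ± 0.20, adjusted p = 0.0213). Serpina9, known in humans as centerin of germinal centre B cells, gave -1.65, -0.22 and -0.34 in Ccr2KO cells and -1.77, -0.60 and -0.37 in WT cells (1.33 ± 0.12, adjusted p = 0.00952). All 4 silica arrays lay above both untreated arrays for each. Of 5 B and plasma cell markers 0 were called, with a median log2 change of -0.09, against 10.5% higher and 9.28% lower of all genes. Serpina11 passed on day 28 and not on day 40, at -2.51, -1.83 and -2.08 in Ccr2KO cells and -2.26, -1.27 and -2.03 in WT cells (day 28 minus untreated 0.83 ± 0.16, adjusted p = 0.0407). Serpina6, which encodes corticosteroid-binding globulin, was above background on 3 arrays, ranged between -7.44 and -3.39 and had no common direction.

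All 17 measured genes of clade a lie on chromosome 12. The 15 genes of clade b lie on chromosomes 1 and 13. There 3 of 7 Serpin genes (Serpine2 and Serpinc1 included) and 3 of 10 rose, against 10.5% of all genes. Those on chromosome 1 include Serpinb5, which was kept only because of its silica arrays.

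In the plasminogen system, Serpine2, protease nexin-1, which blocks thrombin and plasminogen activators at the cell surface, gave 2.52, 3.50 and 3.94 in Ccr2KO cells and 1.34, 3.30 and 3.72 in WT cells. It rose by 1.68 ± 0.26 (adjusted p = 0.0229) with no overlap. Serpinf2, alpha-2-antiplasmin, gave -4.06, -5.13 and -4.67 in Ccr2KO cells and -4.57, -5.53 and -6.02 in WT cells. All 4 silica arrays lay below both untreated ones, but only 3 of the 6 arrays were above background, 2 of them the untreated ones, and the change of -1.02 ± 0.24 did not pass (adjusted p = 0.0531).

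Of 6 measured genes for the proteases, receptors and cofactors of the plasminogen system, 0 rose and 1 fell, with 10.5% of all genes higher and 9.28% lower. Plat, which encodes tPA, changed by 0.83 ± 0.21 (adjusted p = 0.0632) and Plaur, the uPA receptor, by 0.18 ± 0.19 (adjusted p = 0.533). The gene that fell was Vtn, encoding vitronectin, an adhesive glycoprotein of plasma and matrix, with -0.07, -0.99 and -1.35 in Ccr2KO cells and 0.01, -1.07 and -1.26 in WT cells (-1.13 ± 0.10, adjusted p = 0.00945).

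Among the inhibitors of clotting, Serpind1, heparin cofactor II, was lower on day 28 (-0.82 ± 0.13, adjusted p = 0.0276), at -0.70, -1.37 and -0.65 in Ccr2KO cells and -0.71, -1.66 and -0.92 in WT cells. Both day 28 arrays were the lowest of their genotype, and the mean over both days did not pass (-0.45 ± 0.11, adjusted p = 0.0614). Serpinc1, antithrombin, ranged between -5.07 and -4.31 and changed by 0.09 ± 0.29 (adjusted p = 0.835). Of 14 clotting proteases and cofactors, 1 rose and 3 fell, against 10.5% higher and 9.28% lower of all genes. The one that rose was Procr, the endothelial protein C receptor (1.71 ± 0.32, adjusted p = 0.0331), while Thbd, thrombomodulin, fell by 0.64, Klkb1 by 0.97 and F2rl1 by 0.98 on the log2 scale.

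Serping1 encodes C1 inhibitor, which holds the first complement proteases in check. It gave 6.61, 6.83 and 7.30 in Ccr2KO cells and 5.97, 6.84 and 7.07 in WT cells. Every silica array was above both untreated arrays, but the change of 0.72 ± 0.16 fell short of the threshold (adjusted p = 0.0513). Of its target proteases, C1ra rose by 1.03 ± 0.18 (adjusted p = 0.0313) and C1s1 did not pass (0.87 ± 0.25, adjusted p = 0.0823). Serpini1, neuroserpin, changed by 0.18 ± 0.14 (adjusted p = 0.405).

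Serpins without a protease to inhibit rose as well. Serpinh1 encodes Hsp47, the chaperone of the endoplasmic reticulum that binds newly made collagen. It gave 4.13, 5.04 and 5.33 in Ccr2KO cells and 3.91, 4.73 and 5.14 in WT cells, with the 2 untreated arrays lowest. It rose by 1.04 ± 0.09 (adjusted p = 0.00992), and day 40 was above day 28 in both genotypes. Serpinf1 encodes PEDF, a secreted collagen-binding protein that restrains vessel growth, and gave 2.80, 4.07 and 4.83 in Ccr2KO cells and 3.09, 3.61 and 3.96 in WT cells. It rose by 1.18 ± 0.26, with an adjusted p of 0.0497 that passed narrowly and was lost under several other settings, among them silica as yes or no (adjusted p = 0.0862). Against 10.5% higher and 9.28% lower of all genes, 4 of 6 fibroblast markers rose and 1 fell. Their summed signal was 232, 485 and 645 in Ccr2KO cells and 229, 417 and 419 in WT cells. Their part in the change of Serpinh1, Serpinf1 and Serpine2 was not tested. Angiotensinogen (Agt), a serpin by fold though not by name, changed by 1.29 ± 0.30 and did not pass (adjusted p = 0.0533).

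Inside clade b, Serpinb1a encodes the leukocyte elastase inhibitor, which protects cells from neutrophil elastase, cathepsin G and proteinase 3. It gave 2.74, 3.89 and 3.92 in Ccr2KO cells and 2.62, 3.93 and 4.34 in WT cells (1.34 ± 0.15, adjusted p = 0.0131). Its copy Serpinb1c gave -1.93, -0.67 and -0.73 in Ccr2KO cells and -2.24, -0.89 and -0.57 in WT cells (1.37 ± 0.14, adjusted p = 0.0115). In both genes all 4 silica arrays were at least 2-fold above the untreated array of their genotype. The third copy, Serpinb1b, did not pass (-0.17 ± 0.35, adjusted p = 0.746).

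Serpinb2, PAI-2, is a largely intracellular inhibitor of uPA induced in inflamed macrophages and epithelium. It gave -4.17, -2.09 and -2.49 in Ccr2KO cells and -3.98, -1.63 and -2.75 in WT cells, highest on day 28 in both, with a silica change of 1.83 ± 0.18 (adjusted p = 0.0111). Serpinb9, the inhibitor with which cells survive granzyme B, gave 2.28, 2.86 and 3.22 in Ccr2KO cells and 2.28, 2.70 and 3.40 in WT cells (0.76 ± 0.11, adjusted p = 0.0222), highest on day 40 in both. It did not pass with silica as yes or no (adjusted p = 0.104) or without the array of any one group. Against 10.5% of all genes, 6 of 8 neutrophil markers were higher. Their summed signal was 180, 507 and 208 in Ccr2KO cells and 210, 404 and 169 in WT cells. It was highest on day 28 in both genotypes, as Serpinb2 was and Serpinb9 was not. Against 10.5% higher and 9.28% lower of all genes, 0 of 5 macrophage markers were called. They summed to 8.72, 40.5 and 20.1 in Ccr2KO cells and 43.1, 39.7 and 6.07 in WT cells. The part of leukocyte RNA in the clade b changes was not tested.

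Serpinb5, maspin, is a marker of basal and squamous epithelium that inhibits no known protease. It was above background on all 4 silica arrays, at -2.02 and -0.56 in Ccr2KO cells and -2.63 and -2.31 in WT cells on days 28 and 40. The untreated arrays gave -7.69 in Ccr2KO cells and -6.67 in WT cells, neither well above background. With those dim untreated signals as measured, its signal was 39.5-fold higher in silica cells, and the true fold may be smaller. Like Serpina1d it was kept only because of its silica arrays, so its passing the test adds no support. Against 10.5% of all genes, 4 of 6 basal cell markers rose. Their summed signal was 9.5, 10.5 and 16.6 in Ccr2KO cells and 9.75, 8.89 and 10.8 in WT cells, and their mean log2 signal -2.26, -0.56 and 0.47 in Ccr2KO cells and -1.91, -0.96 and -0.45 in WT cells. The mean was higher after silica in both genotypes, whereas the sum was lower on day 28 than untreated in WT cells. In untreated cells the sum was carried almost entirely by Trp63, which did not pass (-0.29 ± 0.11, adjusted p = 0.132). Their part in the Serpinb5 change was not tested.

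The 5 Serpinb6 copies, intracellular inhibitors whose best known target is cathepsin G, had a median change of 0.13 and none passed. Serpinb6a gave 5.55, 5.40 and 5.88 in Ccr2KO cells and 5.33, 5.33 and 5.58 in WT cells (0.11 ± 0.10, adjusted p = 0.500). Serpinb8, which can inhibit furin, gave 3.95, 3.90 and 3.68 in Ccr2KO cells and 3.80, 3.67 and 4.03 in WT cells (-0.05 ± 0.16, adjusted p = 0.832). Serpinb3c changed by -0.38 ± 0.16 (adjusted p = 0.168). Serpinb9b was above background on 3 silica arrays and neither untreated one. By the means it was about 9.02-fold higher in silica cells, an estimate made as for Serpina1d. The silica arrays spread from -7.93 to -2.88, and it did not pass (adjusted p = 0.124).

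**Figure D3:**
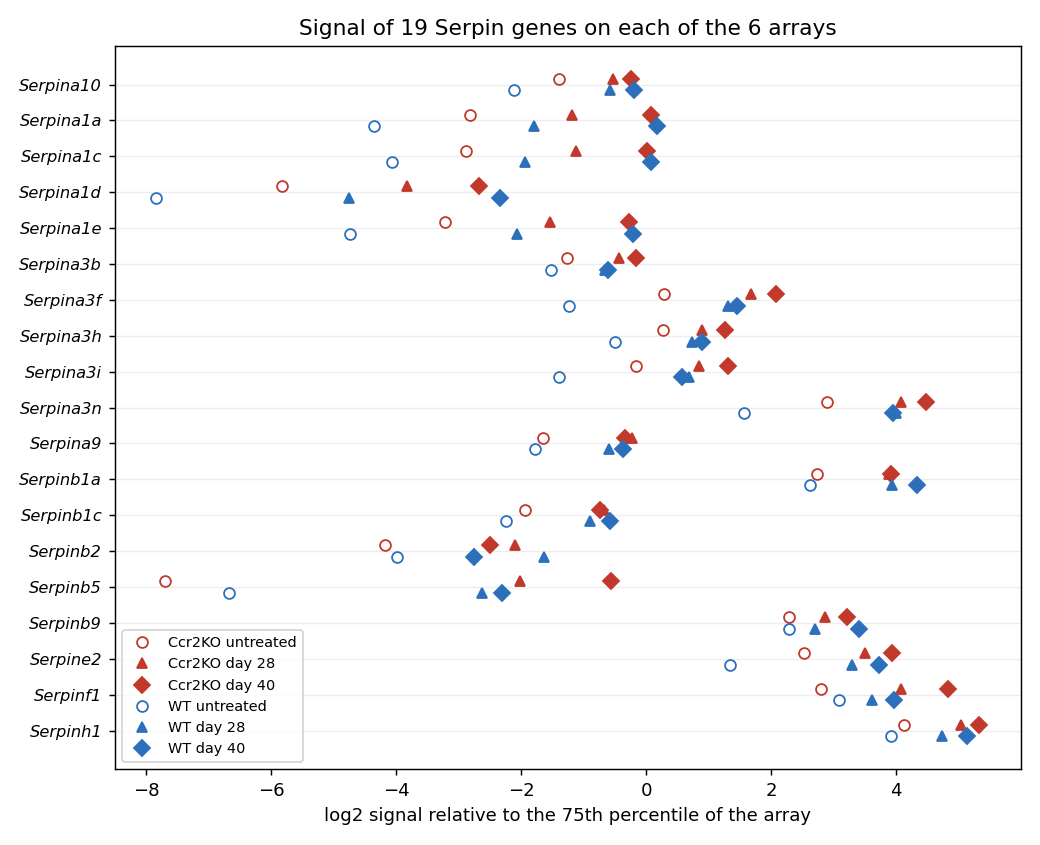
Log2 signal over the array's 75th percentile, for each of the 19 Serpin genes that rose and each of the 6 arrays (red Ccr2KO, blue WT, open circles untreated, filled triangles day 28, filled diamonds day 40). In every gene both open circles lie left of all 4 filled points. Positions of different genes are not comparable, since probes differ.

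By day, 17 of the 41 genes were higher on day 28 than untreated, against 9.18% of all genes, and 18 on day 40, against 8.52%. Serpinb5 counts on both days and Serpina1d on day 40, although both were kept only because of their silica arrays. Among the 34 genes above background on all 6 arrays, 16 were higher on day 28 and 16 on day 40. On day 28, 1 Serpin gene (Serpind1) was lower, against 8.01% of all genes, and on day 40, 1 (Serpinb10), against 6.73%. Between day 40 and day 28, 1 of the 41 passed, against 2.73% of all genes, and 16 had an unadjusted p below 0.05. The gene was Serpinb10, bomapin, known from blood-forming and myeloid cells. It gave -3.91, -2.57 and -5.76 in Ccr2KO cells and -0.79, -0.17 and -3.45 in WT cells, the last Ccr2KO value not above background. Day 40 was lower than day 28 by 9.18-fold in Ccr2KO cells, an estimate from that dim signal, and by 3.28 on the log2 scale in WT cells. The fitted difference of -3.24 ± 0.24 (adjusted p = 0.016) takes the dim Ccr2KO signal as measured. That call was lost with the slide row as a block and when any one of the 4 silica arrays was left out. Day 40 was also lower than untreated (-2.26 ± 0.24, adjusted p = 0.0163), again with the dim signal as measured. On each day its signal was lower in Ccr2KO than in WT cells. The leukocyte markers moved the same way between days 28 and 40, as given above, and their part was not tested. The 4 Serpina1 copies that rose went the other way, higher on day 40 than on day 28 by 1.56 to 1.80 on the log2 scale, with unadjusted p below 0.05 and adjusted p between 0.127 and 0.268.

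**Figure D4:**
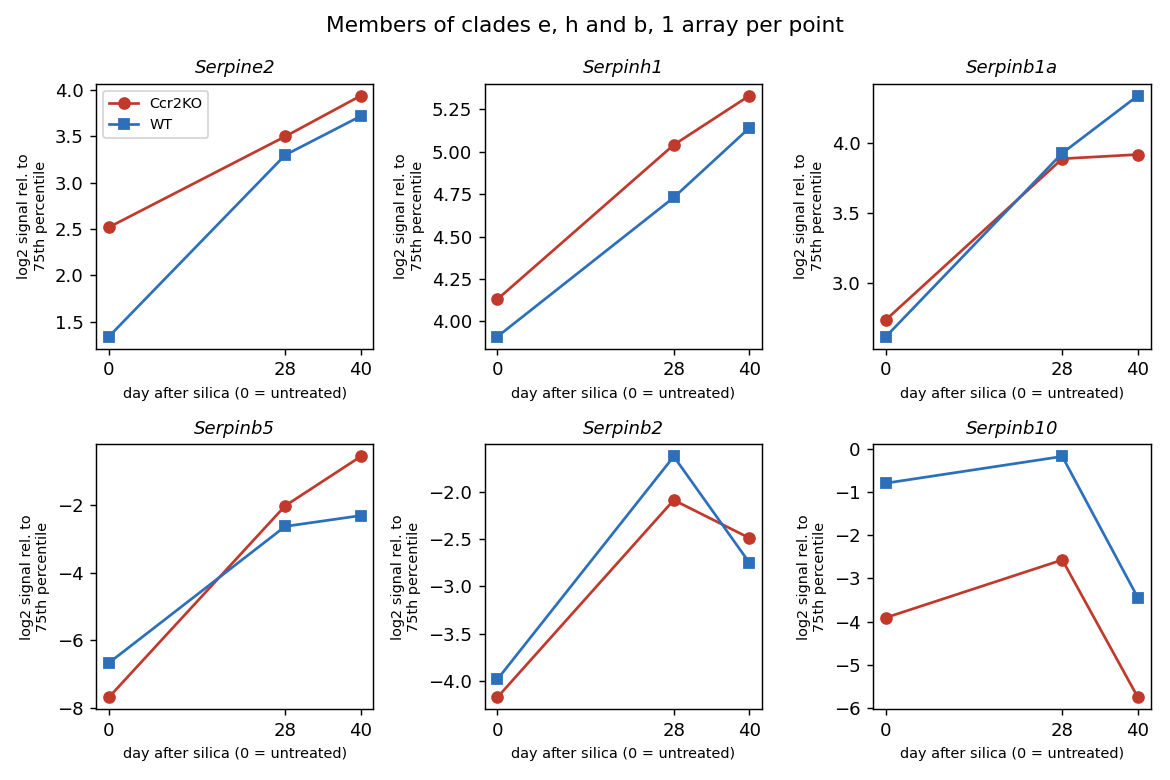
Log2 signal over the array's 75th percentile against day after silica (day 0 is untreated) for 6 members of clades e, h and b, with 1 array per point and separate vertical scales. Serpine2 and Serpinh1 climb in both Ccr2KO and WT cells, Serpinb1a reaches most of its increase by day 28, and Serpinb10 falls between days 28 and 40 in both.

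Between genotypes, 0 of the 41 genes passed for Ccr2KO minus WT over the 3 days, against 0% of all genes. In that fit limma gave 9 Serpin genes and 1526 of all genes an unadjusted p below 0.05. The difference between the silica responses of the genotypes likewise gave 0 of 41, against 0% of all genes, with 5 Serpin genes and 618 of all genes at an unadjusted p below 0.05. The 5 were Serpina3c, Serpina3f, Serpina3m, Serpina3n and Serpinb1b, all with an adjusted p of 1.

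Array by array, and without a test, more Serpin genes differed by 2-fold between genotypes in untreated cells than on day 28 or day 40. In untreated cells 10 of 41 were at least 2-fold higher in Ccr2KO than in WT, against 2.17% of all genes, and 3 were at least 2-fold lower, against 2.81%. Among the 10 were Serpina1a, Serpina1c, Serpina1d, Serpina1e, Serpina3f, Serpina3i, Serpina3m, Serpina3n and Serpine2. The Serpina1 copies moved together over the arrays, as did Serpina3f, Serpina3i and Serpina3n, so the 10 cannot be counted as separate observations. The difference was 1.54 for Serpina1a, 1.52 for Serpina3f, 1.31 for Serpina3n and 1.19 for Serpine2 on the log2 scale. The untreated Serpina1d signals were not well above background in either genotype, nor were those of Serpinb5, one of the 3 lower genes beside Serpina6 and Serpinb10. Both untreated arrays lay in row 1 of the slide.

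On day 28, 0 of 41 were at least 2-fold higher in Ccr2KO, against 1.24% of all genes, and 3 (Serpina6, Serpinb10 and Serpinb9b) were lower, against 1.19%. On day 40, 4 (Serpina6, Serpinb1b, Serpinb5 and Serpinf2) were higher, against 3.3%, and 1 (Serpinb10) was lower, against 1.59%. Of those 4, only 1 (Serpinb1b) was above background on all 6 arrays. The same held for 0 of the genes that were lower on day 28 or day 40. By day 40 the Serpina1a signals of the genotypes differed by -0.10. On day 40 Serpina1a was above the untreated array of the same genotype by 2.89 in Ccr2KO cells and by 4.53 in WT cells, and the test of the difference between the silica responses did not pass (adjusted p = 1). The same pair of untreated arrays stands behind the untreated difference and these increases, so they are not separate observations.

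**Figure D5:**
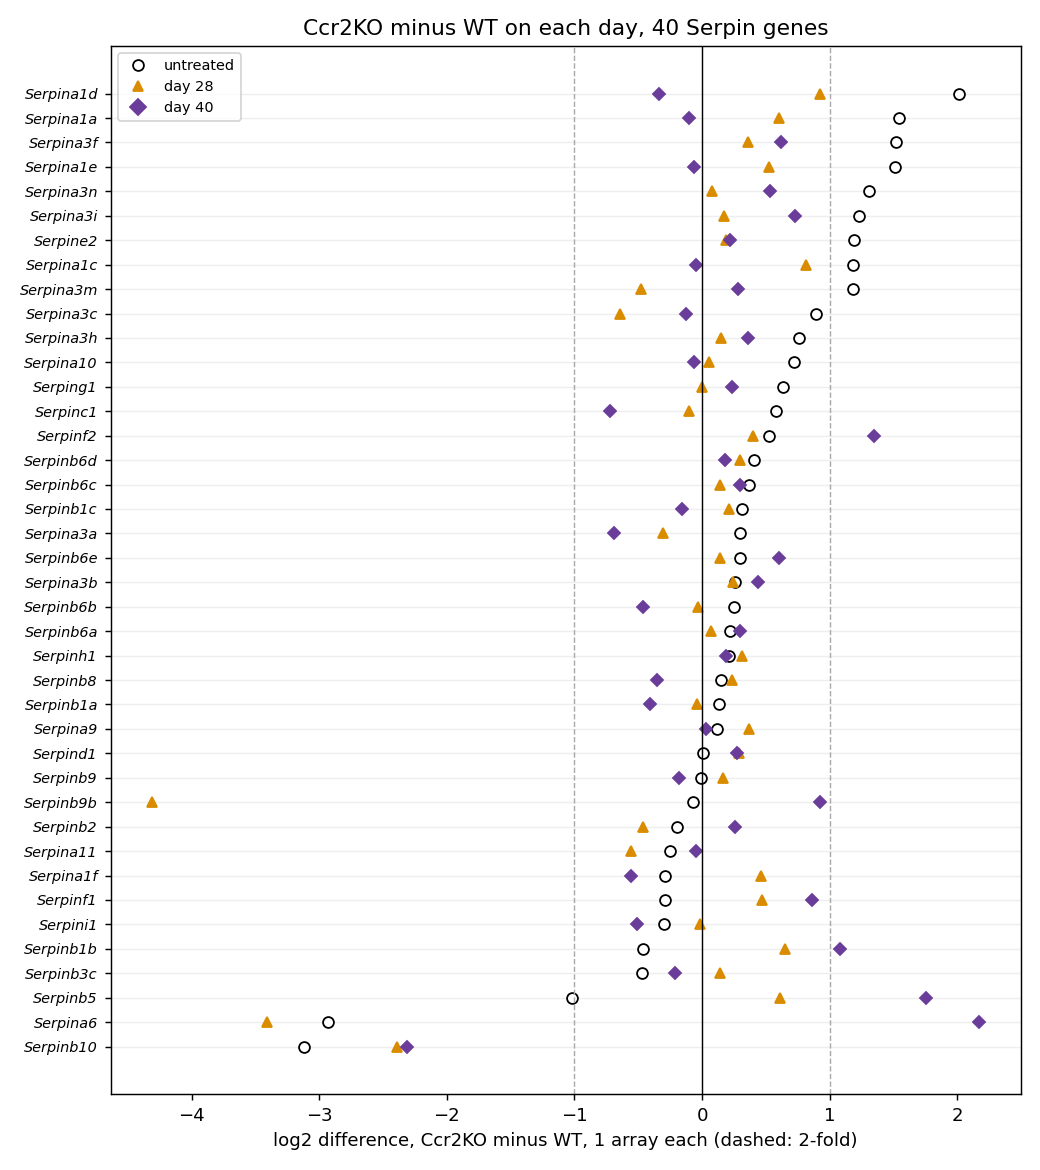
Log2 difference between the Ccr2KO and the WT array of the same day for 40 Serpin genes, ordered by the untreated difference, with 1 array each and dashed lines at 2-fold. Open circles (untreated) lie beyond the right dashed line for 9 genes, triangles (day 28) for 0 and diamonds (day 40) for 4.

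Of 24 measured inhibitors of other families, 13 rose and 1 fell, against 10.5% and 9.28% of all genes, and 10 did not pass. Their median log2 change was 0.93. Among the 13 are the stefin copies Stfa1, Stfa2, Stfa3 and Stfa2l1, which cannot be counted as separate observations. Timp1, an inhibitor of matrix metalloproteinases, gave 2.51, 5.63 and 5.90 in Ccr2KO cells and 1.89, 5.43 and 5.24 in WT cells (3.35 ± 0.14, adjusted p = 0.00658). The stefins Stfa3 and Stfa1, cathepsin inhibitors abundant in mouse neutrophils, rose by 2.42 and 2.35 over both days. Their increase over untreated was 3.76 and 3.65 on day 28, and on day 40 neither passed (1.09, adjusted p = 0.119, and 1.04, adjusted p = 0.256). In Stfa3 and Stfa1 the silica and untreated arrays overlapped. They also overlapped in Stfa2, Stfa2l1 and Cst7, whose changes from untreated on day 40 were 0.02, -0.02 and -0.05. The summed signal of the neutrophil markers was likewise highest on day 28, and their part was not tested. Slpi, the secreted inhibitor of neutrophil elastase, rose by 1.70. The gene that fell was Reck, a membrane-bound inhibitor of matrix metalloproteinases, by 1.20 on the log2 scale.

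Proteases of several families were counted by list against the same shares of all genes (10.5% higher and 9.28% lower). Of 3 neutrophil serine proteases, Ctsg rose by 2.71 ± 0.14 (adjusted p = 0.00755) and Prtn3 by 1.31, while Elane, neutrophil elastase and the target of alpha-1-antitrypsin, did not pass (0.62 ± 0.32, adjusted p = 0.231). Of 7 mast cell proteases 5 rose, Mcpt1 most in value, with both untreated arrays not above background. Of 9 cathepsins 3 rose (Ctsk by 2.90, Ctsd by 0.62 and Ctsz by 0.49), and of 5 granzymes 2 (Gzmc by 1.86 and Gzmk by 1.11). Of 15 epithelial and secreted serine proteases 2 rose (Fap and Furin) and 4 fell, among them Dpp4 by 1.50 and Tmprss2 by 0.93 on the log2 scale. In a separate list of 10 regulators and ligands, 4 rose over both days (Il1b, Osm, Lif and Tgfb1). Il1b was higher on day 28 (2.62, adjusted p = 0.00809) but not on day 40 (-0.09, adjusted p = 0.585). Osm was also higher on day 28 (2.83, adjusted p = 0.0181) and did not pass on day 40 (0.74, adjusted p = 0.217). Lif rose by 1.35 and Tgfb1 by 0.60 over both days.

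A promoter window was given for 33 of the 41 measured Serpin genes, 15 of them among the 19 that rose. In the 250 bases before the start, read on both strands, TTCNNNGAA, the form bound by STAT factors, was found in 6 of 33 Serpin genes and in 8.13% of all 27025 genes with a window, a gene counting once if any of its windows matched. TGANTCA, the AP-1 form, was found in 7 genes, 3 of them Serpina1 copies, and in 7.82% of all genes. TATAAA occurred in 7 genes and 14.3% of all genes, and CAGACA, a form bound by SMAD factors, in 6 genes and 19.3% of all genes. Genes that rose held 3 of the 6 STAT forms, 5 of the 7 AP-1 forms, 4 of the 7 TATAAA matches and 5 of the 6 SMAD forms. A match of letters is not a bound site.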

How the data were processed

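Arrays were one-colour Cy3 Agilent arrays. Per the file headers, background-subtracted intensity was extracted with Feature Extraction 11.0.1.1 and deposited by the authors. Their deposited value table holds log2 of the same intensity for probes above background on every array, and the submitters' processing notes name R 2.15.1. Here control and outlier spots were dropped and repeated spots averaged. The 75th percentile of an array was subtracted in log2 units, and a probe had to be well above background on 2 or more of the 6 arrays. Symbols came from RefSeq names and the GRCm38.p6 gene table, with the brightest probe standing for its gene.

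Fits used limma 3.58.1 (lmFit, eBayes) in R 4.3.3 over 16440 genes, with day and genotype, or genotype by silica, as terms (2 residual degrees of freedom each) and Benjamini-Hochberg adjustment. With 1 array a group, the number of arrays limits the precision. Alternatives were other scalings, filters, probe summaries, priors, the slide row as a block and each array left out. Named genes passed a test in some contrast, lay at least 2-fold from untreated on all 4 silica arrays, or have a known role. The members and the lists of related genes and markers were chosen with earlier results of these data known. Promoter sequences are those of RefSeq. 1 of the 41 genes counts in the totals but is not reported here.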

Additional observations from a re-analysis of the deposited data

Results flagged for a closer look

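In 3 Serpin genes both silica arrays of one genotype lay above, and both of the other below, their own untreated array. The share of all genes with this pattern is not given here, so the count cannot be called unusual. The difference between the silica responses (Ccr2KO minus WT, log2) was -1.28 for Serpina3m, 1.33 for Serpinb1b and -0.99 for Serpinc1. In Serpina3m both silica arrays were lower than untreated in Ccr2KO cells (-0.40 and -0.24) and higher in WT cells (1.27 and 0.66). In Serpinb1b they were higher in Ccr2KO cells (0.27 and 0.71) and lower in WT cells (-0.85 and -0.83). In Serpinc1 they were lower in Ccr2KO cells (-0.08 and -0.72) and higher in WT cells (0.61 and 0.57). The limma test of each difference did not pass (adjusted p = 1).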

How the results depend on the processing

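The 19 Serpin genes that rose kept a positive value under every alternative that tested them, all on the arrays by which they were picked. The count of genes higher was 0 with the slide row as a block, and 0 to 18 with 1 array left out (0 without WT day 28 or without Ccr2KO day 28). Under the other alternatives it was 13 to 21. Serpinf1 was lost with quantile normalization, with no filter and with the mean of a gene's probes. With silica as yes or no in place of the days, 13 passed and the Serpina1 copies, Serpinb9 and Serpinf1 were lost. The count lower was 1 with normexp on the median signals (chosen after seeing the data, since no mean signal column was in the files and that planned setting was not run), 2 with quantile normalization, 2 in the authors' table, 1 with probes above background on all 6 arrays, 1 with a trended robust prior, and 0 to 1 with 1 array left out.

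The day 40 minus day 28 count was 5 with normexp, 2 in the authors' table, 2 with the mean of probes, 0 with probes above background on all 6 arrays, 0 with the row block and 0 to 2 with 1 array left out. The median change was 0.66 in the authors' table, 0.60 with no filter and 0.55 with the row block. The authors' table, not scaled between arrays, moved the median of all genes to -0.19 and called 1309 higher and 3628 lower, against 1722 and 1526. Over all genes 1877 were called with no filter and 2032 with silica as yes or no, against 3248. Ccr2KO minus WT and the difference of responses gave 0 Serpin genes in every setting run, and the difference of responses could not be fitted without an untreated array. No paired analysis was possible because each group has 1 array. The causes of these changes were not tested.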
